A study of Mus musculus with 73 samples.

Results

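Solute carriers are the membrane proteins, named Slc and a number for the family, that move sugars, amino acids, ions, vitamins and metabolites across cell and organelle membranes. The carriers described here were those detected in the epithelium of the mouse jejunum, the part of the small intestine in which much of a meal is absorbed. They were chosen by gene symbol and abundance: of 342 gene symbols beginning with Slc and a digit, 193 had a sum of 80 or more UMIs (unique molecular identifiers, each a tagged mRNA molecule) over the 8 epithelium samples, and 188 remained after 5 were left out by name (*Slc28a1*, *Slc28a2*, *Slc29a1*, *Slc12a2* and *Slc5a4a*). The 188 were members of a table of 17399 genes. All 8 mice were males of the strain Lgr5(GFP-ires-DTR/+), 4 months old by their labels, in which the diphtheria toxin receptor and GFP are made from the *Lgr5* locus. The 4 DT mice had received diphtheria toxin (DT) and the 4 control mice saline vehicle, both into the peritoneum, and the epithelium was detached with EDTA 48 h later. The controls carried the same allele, so that allele is shared by both groups. The toxin reaches every cell that uses the *Lgr5* locus, which holds for the telocytes of the villus tip, a stromal cell type, and for the stem cells at the crypt base, so the loss of the former and of the latter cannot be told apart in these samples. The mice fell into a pair of batches given in the study's tables, batch a with mice 1 and 2 of each group and batch b with mice 3 and 4. A separate set of plate-sorted single cells, from the jejunum of 8 male C57bl6 mice, 3 months old by their labels and with no treatment given there, served to place the carriers along the villus.

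An absorbing enterocyte takes up nutrients through carriers of its brush border, the apical membrane facing the gut lumen, and hands them to the blood through other carriers of its basolateral membrane. Many apical carriers, among them the glucose carrier SGLT1 (*Slc5a1*) and the neutral amino acid carrier B0AT1 (*Slc6a19*), draw on the sodium gradient kept by the sodium pump, while the peptide carrier PEPT1 (*Slc15a1*) uses protons. Enterocytes are born in the crypt, move up the villus and are shed at its tip, and carriers differ in where along this path they are made. The Slc25 family serves the mitochondrial inner membrane and the Slc35 family the Golgi and endoplasmic reticulum, so both do their work inside the cell.

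The 8 libraries held 748458 to 4210158 UMIs, of which the members took 1.61% to 2.30%. Levels are given in CPM, that is UMIs of a gene per 1000000 UMIs of the genes tested, with libraries scaled by TMM. The filter for testing used the share of all UMIs of a library instead. Control 2 was the shallowest library. Its Pearson r over genes was 0.839 to 0.908 with the other batch a samples and 0.656 to 0.753 with those of batch b. The other batch a samples had 0.782 to 0.923 with batch b, and r was 0.782 to 0.971 among all samples but control 2. Enterocyte markers summed to 41853 to 62847 CPM in the controls and 37219 to 61853 in the DT mice, with 11 of 13 genes below 0 (median log2 fold change -0.16) and 0 past an adjusted p of 0.05 or 0.2. Fibroblast and endothelial markers reached at most 24.5 and 21.8 in any mouse. Markers of other epithelial types moved with the treatment: 2 of 7 tested Paneth and 3 of 3 tested tuft cell markers fell (edgeR adjusted p under 0.05), and the sums of the Paneth markers were 5501 to 16169.8 in control and 883 to 2591 in DT mice, and of the tuft markers 39.0 to 69.7 and 4.73 to 12.7. Of the goblet and enteroendocrine lists 0 of 7 and 0 of 6 passed 0.05, 6 of 7 and 6 of 6 lay below 0, and their sums ran from 5711 to 10905 and 583 to 963 in control and from 4287 to 6273 and 359.6 to 648 in DT mice. At an adjusted p of 0.2, 5 Paneth, 1 goblet and 2 enteroendocrine genes were lower and 2 proliferation genes higher. The proliferation list had 8 of 8 genes above 0 (0 past 0.05; sums 554 to 848 and 793 to 1063), the stem cell list 5 of 6 above 0 (0 past 0.05; sums 121 to 226 and 176 to 241) and the immune list 11 of 11 below 0 (0 past 0.05; sums 351 to 2195 and 192 to 1275). The part of these shifts in the carriers' levels was not tested, and in bulk samples fewer cells of a type and less RNA per cell cannot be told apart.

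The question put to the epithelium was how the carriers stood 48 h after DT against vehicle. No member passed an adjusted p of 0.05, which says nothing of the 5 carriers left out by name. Most of the members with the lowest p had lower levels in the DT mice. They were led by the vitamin C carrier *Slc23a1*, the mitochondrial iron carrier *Slc25a37*, the amino acid carrier *Slc7a15*, the bicarbonate carrier *Slc4a7*, the sulfate carrier *Slc26a2*, the peptide carrier *Slc15a1* and the fatty acid carrier *Slc27a4*. The glutamine carrier *Slc38a1* went the other way. In edgeR's quasi-likelihood test, with libraries scaled by TMM and batch as a term, 0.356% of the 8986 genes tested had an adjusted p under 0.05 (0.334% lower and 0.0223% higher in DT mice). Of the 163 members tested 0 did. At an adjusted p of 0.2, the level the study used, 2.38% of all genes passed. There 10 members were lower against 1.66% of all genes, and 1 was higher against 0.723%. Those 10 were 6.13% of the tested members. At an unadjusted p of 0.05, 22 members were lower and 8 higher, which is 13.5% and 4.91% of the members beside 8.44% and 8.82% of all genes. DESeq2 called 11 members at an adjusted p of 0.05, 10 of them lower, beside 1.77% of all genes: these were the 11 past 0.2 in edgeR without *Slc7a8* and with *Slc9a3r1*.

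The replicate numbers followed the batches, and with the replicate number as a block in place of batch 0 members passed 0.05 and 2 passed 0.2 (*Slc23a1*, adjusted p = 0.188, and *Slc7a15*, adjusted p = 0.197, edgeR), beside 0.779% of all genes. With no filter on low counts, 20 of the 188 members and 635 of the 15502 genes with a UMI passed 0.05. The count of members past 0.2 was 3 (79 of all genes) without control 1, 2 (41) without control 3 and 5 (106) without control 4. It was 3 (58) without DT 2, 2 (73) without DT 3, 21 (840) without DT 1 and 23 (534) without DT 4. Single libraries thus decide it, for the members and for all genes.

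Across the members the log2 fold changes lay below 0 more often than above it. Of the 163 tested, 99 (60.7%) lay below 0 beside 49.5% of all genes, and the median was -0.12 for the members and 0.00 for all genes. Both DT mice lay below both controls in each batch for 25 members, 15.3% of those tested, where 8.09% of all genes did so, and the reverse held for 5 members (3.07%, all genes 9.69%). Without control 2 the first count was 36 members (22.1%) and 11.8% of all genes. An exact two-sided permutation test of a single carrier within batches has 36 arrangements and cannot go below p = 0.0556, a value that 30 members (18.4%) reached. Only a gene without overlap in both batches reaches it. The 30 are therefore the same 25 lower and 5 higher members, beside 8.09% and 9.69% of all genes. The direction was the same in both batches for 70.6% of members and 69.8% of all genes. No gene had an adjusted p under 0.05 for a difference between the batches in the treatment effect (edgeR, treatment by batch term), and 4 members (2.45%) and 223 of all genes (2.48%) had an unadjusted p under 0.05.

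Of the 11 carriers past an adjusted p of 0.2, not all of which were tested in the sorted cells, 3 were also higher in the upper villus there. Of those tested in the sorted cells, 13 of 36 members and 24.3% of all genes were higher. *Slc26a2*, *Slc5a11* and *Slc16a10* were tested there and not called. *Slc23a1*, *Slc25a37*, *Slc38a1*, *Slc4a7* and *Slc7a8* were not deep enough to be tested there. The 3 that were higher, *Slc7a15*, *Slc15a1* and *Slc27a4*, are shown with the 250 bases before their RefSeq transcription start (GRCm38.p6, 5′ to 3′ on the gene's strand). Capitals mark matches, on either strand, to the letters CAAAGTNCA (bound by HNF4 factors), TTTATNG (CDX factors) or CCACCC (KLF factors).
Slc7a15, chr12:8599067-8599316, minus strand: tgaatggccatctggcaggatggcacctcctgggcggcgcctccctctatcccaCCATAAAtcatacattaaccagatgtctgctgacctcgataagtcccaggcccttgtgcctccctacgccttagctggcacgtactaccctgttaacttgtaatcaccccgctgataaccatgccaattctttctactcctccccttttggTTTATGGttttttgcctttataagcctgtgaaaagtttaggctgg
Slc15a1, chr14:121505255-121505504, minus strand: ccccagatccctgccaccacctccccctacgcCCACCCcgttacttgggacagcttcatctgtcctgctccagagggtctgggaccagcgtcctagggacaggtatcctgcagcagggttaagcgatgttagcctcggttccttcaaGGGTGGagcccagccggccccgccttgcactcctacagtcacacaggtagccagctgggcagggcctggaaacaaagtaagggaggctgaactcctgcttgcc
Slc27a4, chr2:29802384-29802633, plus strand: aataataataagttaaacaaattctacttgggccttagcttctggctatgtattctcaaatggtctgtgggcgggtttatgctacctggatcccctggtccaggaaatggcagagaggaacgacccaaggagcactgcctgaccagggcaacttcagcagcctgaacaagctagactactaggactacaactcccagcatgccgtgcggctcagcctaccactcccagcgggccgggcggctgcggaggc
The *Slc7a15* window held TTTATNG at 2 places, the *Slc15a1* window CCACCC at 2 places, and the *Slc27a4* window none of the 3, and no match overlapped another. Over all 32851 RefSeq windows of this length 1.19% held CAAAGTNCA, 9.81% TTTATNG and 28.1% CCACCC, and over the 186 windows of the 145 members matched by symbol 0.538%, 4.3% and 41.9%. *Slc7a15* has a second start in the table, whose window held no match. A match describes these letters and does not show binding.

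**Figure D1:**
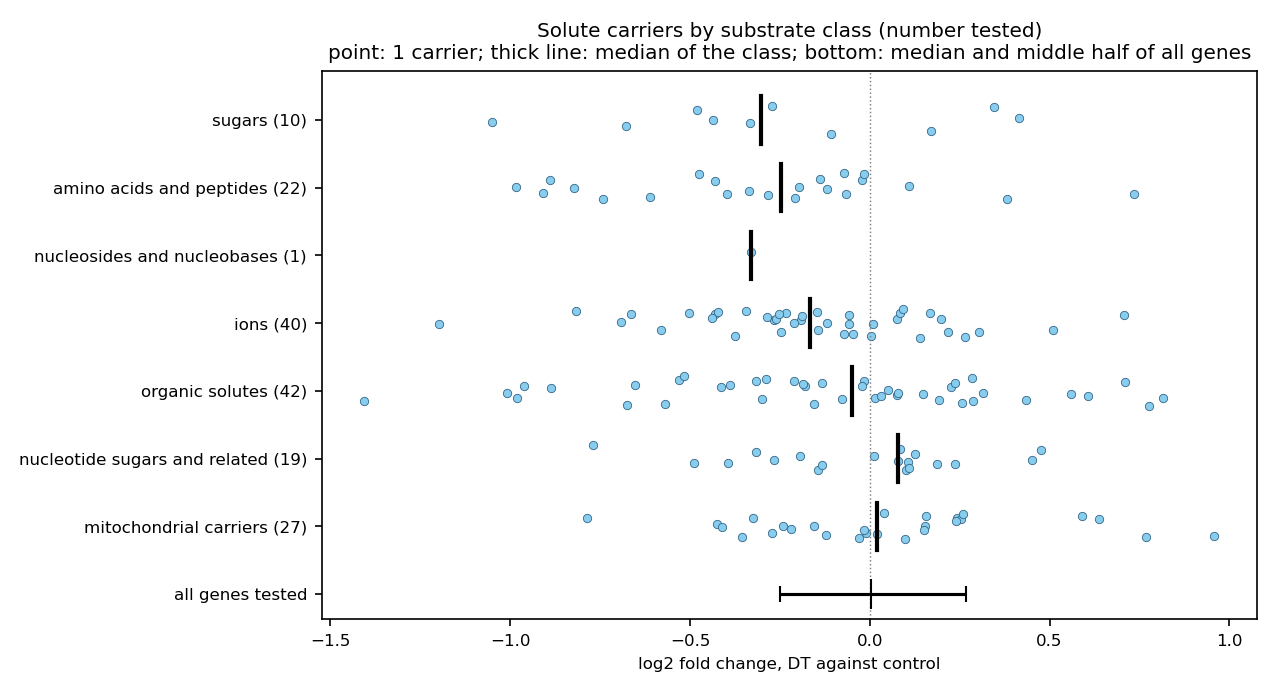
Log2 fold change of each tested carrier, DT against control (x axis), by substrate class (y axis, number tested in brackets). Points are carriers, thick lines class medians, and the bar at the bottom gives the median and interquartile range of all 8986 genes; 19 of 22 amino acid and peptide carriers lie left of 0, while mitochondrial carriers lie on both sides.

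Sugar carriers were mostly lower in the DT mice, without a call at 0.05. Of 13 members 10 were tested, 7 lay below 0 (70.0%, all genes 49.5%) and the median log2 fold change was -0.30. *Slc5a1*, which brings glucose and galactose in with sodium, was the most abundant member of all and stood at 3055 and 3512 CPM in the batch a controls and 1966 and 1811 in the batch b controls. In DT mice it was 2470.5 and 2367 in batch a and 1144 and 1653 in batch b. In each batch both DT mice were below both controls, but the DT mice of batch a were above the controls of batch b, and the difference did not pass (log2 fold change -0.44, SE 0.23, edgeR adjusted p = 0.335). *Slc2a2*, the basolateral glucose carrier GLUT2, averaged 469.8 ± 201 CPM in control and 389 ± 155 in DT mice (SD, n = 4 each), with adjusted p = 0.520 in edgeR. *Slc2a5*, the apical fructose carrier GLUT5, averaged 129 ± 22.1 CPM in control and 146 ± 25.7 in DT mice (SD, n = 4 each), an abundant sugar carrier with a higher mean in DT (log2 fold change 0.17, edgeR adjusted p = 0.587).

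Among sugar carriers the lowest p belonged to *Slc5a11*, a sodium-coupled carrier of inositol, at chr7:123214780-123273253, plus strand of GRCm38. It measured 141 and 114 CPM in the batch a controls and 83.9 and 85.2 in the batch b controls. After DT its level was 80.2 and 103 in batch a and 44.6 and 48.4 in batch b. Within each batch the groups did not overlap (log2 fold change -0.68, SE 0.17, edgeR adjusted p = 0.146), and the log2 fold change was -0.48 in batch a and -0.86 in batch b. *Slc5a4b*, named here after its values were seen, had the largest sugar carrier fold change (log2 fold change -1.05, SE 0.32, edgeR adjusted p = 0.216), and since its reads can be shared with its near-identical copy *Slc5a4a* its value is uncertain. The summed level of the 13 sugar carriers, 70.6% of it *Slc5a1*, was 4443, 4557, 2817 and 2558 CPM in controls 1 to 4 and 3559.8, 3333, 1827 and 2363 in DT mice 1 to 4. The batches differed more than the groups did.

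Among the classes with more than 1 tested carrier, the carriers of amino acids and peptides had the highest share below 0. Of 27 members 22 were tested, 19 of these lay below 0 (86.4%, all genes 49.5%) and the median was -0.25, with -0.12 in batch a and -0.40 in batch b. At an adjusted p of 0.2, 4 were lower and 1 was higher, beside 1.66% and 0.723% of all genes. The summed level of the 27 was 4445, 3849, 3861 and 3383 CPM in controls 1 to 4 and 3120.2, 3210.1, 1969 and 2576 in DT mice 1 to 4. The 4 DT mice all lay below the 4 controls, in each batch and over both, at 2719 ± 573 against 3884 ± 435 (SD, n = 4 each).

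*Slc15a1* encodes PEPT1, the apical carrier of di- and tripeptides, and lies at chr14:121459621-121505252, minus strand. Its level was 673 and 597 CPM in the batch a controls and 546 and 468 in the batch b controls. Values after DT were 384 and 379 in batch a and 150.4 and 284 in batch b. Every DT mouse was below every control (log2 fold change -0.98, SE 0.24, edgeR adjusted p = 0.137), with log2 fold changes of -0.74 in batch a and -1.23 in batch b. *Slc6a19*, the main apical carrier of neutral amino acids, measured 512 and 281 CPM in the batch a controls and 714 and 419 in the batch b controls. Under DT it stood at 243 and 278 in batch a and 199 and 295 in batch b. Control 2 and DT 2 almost met, and the largest gap was in batch b (log2 fold change -0.91, SE 0.27, edgeR adjusted p = 0.216). Without control 2 the log2 fold change of *Slc6a19* was -1.11. *Slc43a2*, the basolateral carrier LAT4 of branched-chain amino acids, had the highest mean of the class and measured 938 and 1198 CPM in the batch a controls and 555 and 382 in the batch b controls. The DT mice had 729 and 525 in batch a and 93.7 and 373 in batch b. DT 3 was far below the other DT mice, and the log2 fold change of -0.89 (SE 0.36, edgeR adjusted p = 0.248) was -0.58 without it.

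*Slc7a15*, an amino acid carrier of the Slc7 family at chr12:8528483-8599066, minus strand, measured 133 and 159 CPM in the batch a controls and 70.4 and 62.4 in the batch b controls. In DT mice it was 59.1 and 80.2 in batch a and 46.7 and 40.4 in batch b. The groups were apart within each batch (log2 fold change -0.82, SE 0.18, edgeR adjusted p = 0.0907). *Slc7a8*, the light chain of the basolateral carrier LAT2, measured 250.4 and 161 CPM in the batch a controls and 196 and 202 in the batch b controls. After DT its level was 128 and 149 in batch a and 81.4 and 132 in batch b. All 4 DT mice were below all 4 controls (log2 fold change -0.74, SE 0.21, edgeR adjusted p = 0.192). *Slc16a10*, the aromatic amino acid carrier TAT1 of the basolateral side, averaged 179 ± 48.2 CPM in control and 116 ± 31.0 in DT mice (SD, n = 4 each), lower in DT within both batches (log2 fold change -0.61, SE 0.16, edgeR adjusted p = 0.175). *Slc38a1*, a sodium-coupled carrier of glutamine and other small neutral amino acids at chr15:96571418-96642913, minus strand, was the exception and measured 28.3 and 26.8 CPM in the batch a controls and 25.8 and 31.0 in the batch b controls. Values after DT were 48.9 and 51.1 in batch a and 45.9 and 42.5 in batch b. Its 4 DT values lay above all 4 control values, in both batches (log2 fold change 0.73, SE 0.17, edgeR adjusted p = 0.109).

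**Figure D2:**
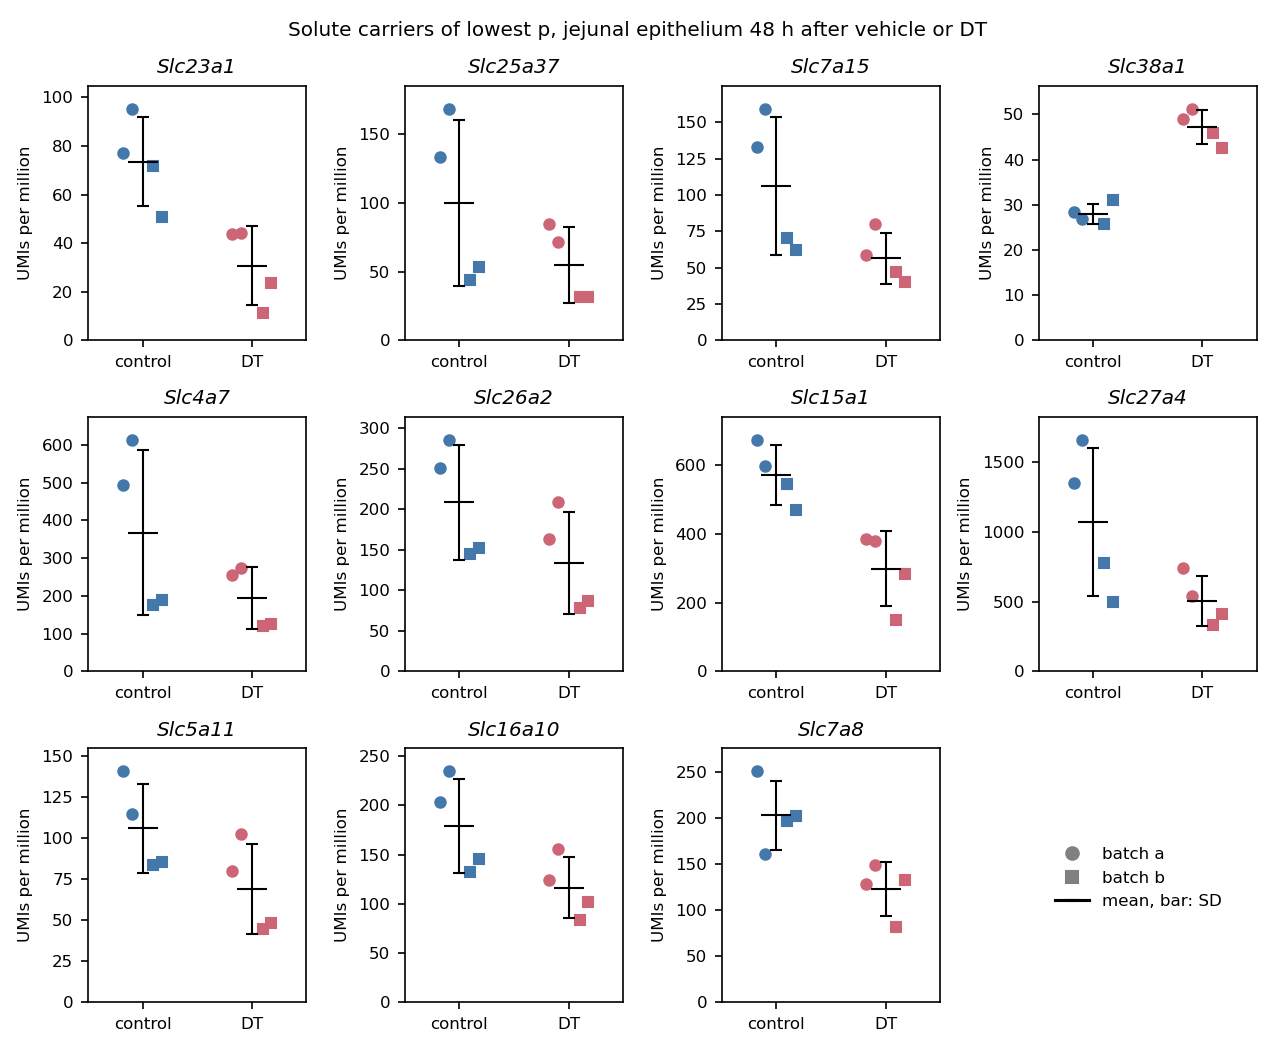
Level of the 11 carriers with edgeR adjusted p under 0.2, in CPM (y axis, from 0), in each control and DT mouse (x axis); circles are batch a, squares batch b, and the black mark and bar are the mean and SD of 4 mice. Within each batch the DT points lie below the control points for 10 carriers and above them for *Slc38a1*.

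Nucleoside carriers were at the edge of detection among the members, from which *Slc28a1*, *Slc28a2* and *Slc29a1* had been left out by name. *Slc28a3*, the concentrative carrier CNT3, averaged 20.3 ± 7.30 CPM in control and 14.9 ± 2.13 in DT mice (SD, n = 4 each; log2 fold change -0.33, SE 0.25, edgeR adjusted p = 0.487), its control mean raised by the 31.2 of control 2. *Slc29a3*, an equilibrative carrier of intracellular membranes, had 94 UMIs in all and was not tested.

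Ion carriers were more often below 0 than above it. Of 42 members 40 were tested, 27 lay below 0 (67.5%, all genes 49.5%) and the median was -0.17 (-0.18 in batch a and -0.088 in batch b). At an adjusted p of 0.2, 2 were lower and 0 higher, beside 1.66% and 0.723% of all genes. A symbol counted here, *Slc4a1ap*, encodes a protein that binds a carrier rather than a carrier. *Slc4a7*, the sodium bicarbonate carrier NBCn1 at chr14:14702279-14799940, plus strand, measured 494 and 612 CPM in the batch a controls and 175 and 189.5 in the batch b controls. Under DT it stood at 255 and 273 in batch a and 121 and 125 in batch b. Its batches were far apart and its groups did not overlap within either (log2 fold change -0.82, SE 0.19, edgeR adjusted p = 0.115). *Slc26a2*, a sulfate carrier, measured 251 and 285 CPM in the batch a controls and 145 and 152 in the batch b controls. The DT mice had 163 and 209 in batch a and 77.7 and 86.6 in batch b. Here too the DT mice were below the controls of their batch (log2 fold change -0.69, SE 0.17, edgeR adjusted p = 0.137).

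For *Slc26a6* and *Slc13a1*, which with *Slc4a7* were the most abundant ion carriers, the group means lay within 1 SD of each other. *Slc26a6*, an apical exchanger of chloride, oxalate and bicarbonate, averaged 369 ± 155 CPM in control and 342 ± 107 in DT mice (SD, n = 4 each; log2 fold change -0.058, 95% interval -0.54 to 0.43), and *Slc13a1*, a sodium sulfate carrier, averaged 298 ± 135 CPM in control and 255 ± 86.6 in DT mice (SD, n = 4 each; log2 fold change -0.19, 95% interval -0.69 to 0.31). The direction of *Slc26a6* turned with scaling by total UMIs alone, without control 2, without DT 2 and in batch b alone, and that of *Slc13a1* turned without control 4. *Slc34a2*, the sodium phosphate carrier NaPi-IIb, had a low level of 24.0 and 4.46 CPM in the batch a controls and 14.8 and 2.18 in the batch b controls. In DT mice it was 6.75 and 2.46 in batch a and 8.93 and 0.421 in batch b. It passed the filter of more than 10 CPM in at least 2 mice through controls 1 and 3 alone, so a lower value in DT is built into its selection, and it did not pass the test (log2 fold change -1.20, SE 0.82, edgeR adjusted p = 0.458).

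Carriers of organic solutes, that is of fatty acids, vitamins, organic anions and cations, monocarboxylates, bile acids and creatine, were spread on both sides of 0 (49 members, 42 tested, 23 below 0, median -0.049), and this class held the carrier with the lowest p. *Slc23a1*, the sodium-coupled vitamin C carrier SVCT1, measured 76.9 and 95.1 CPM in the batch a controls and 71.6 and 50.6 in the batch b controls. After DT its level was 43.9 and 44.3 in batch a and 11.3 and 23.6 in batch b. All 4 DT mice lay below all 4 controls, with the lowest values in batch b (log2 fold change -1.41, SE 0.27, edgeR adjusted p = 0.0521). Its log2 fold change was -0.95 in batch a and -1.85 in batch b, from -1.57 to -1.11 when each mouse was left out in turn, and with RLE in place of TMM scaling it was the single member past 0.05.

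*Slc27a4*, the fatty acid transport protein FATP4 at chr2:29802634-29817522, plus strand, had the highest mean of the class and measured 1349 and 1656 CPM in the batch a controls and 775 and 494 in the batch b controls. Values after DT were 740.0 and 537 in batch a and 329 and 409.7 in batch b. DT mice were below the controls of their batch (log2 fold change -1.01, SE 0.25, edgeR adjusted p = 0.137), with log2 fold changes of -1.23 in batch a and -0.78 in batch b. *Slc13a2*, a sodium dicarboxylate carrier, and *Slc6a8*, the creatine carrier, were also lower within both batches. *Slc13a2* averaged 323 ± 83.7 CPM in control and 173 ± 79.1 in DT mice (SD, n = 4 each), with an edgeR adjusted p of 0.222, and *Slc6a8* averaged 273 ± 46.9 CPM in control and 175 ± 62.1 in DT mice (SD, n = 4 each), with 0.226. Against these stood *Slc46a1*, the proton-coupled folate carrier, at 189 ± 67.4 CPM in control and 218 ± 36 in DT mice (SD, n = 4 each; log2 fold change 0.28, edgeR adjusted p = 0.542), with -0.21 in batch a and 0.76 in batch b.

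The carriers of internal membranes did not lean one way. The Slc35 class held carriers of nucleotide sugars and related carriers of the Golgi and endoplasmic reticulum. In it 19 of 19 members were tested, 8 lay below 0, the median was 0.079 and 0 passed 0.2. Its most abundant members were close in the groups: *Slc35c2* averaged 212 ± 74.7 CPM in control and 183 ± 31.1 in DT mice (SD, n = 4 each), *Slc35b1* averaged 166 ± 31.3 CPM in control and 181 ± 24.5 in DT mice (SD, n = 4 each) and *Slc35g1* averaged 143 ± 21.7 CPM in control and 151 ± 26.7 in DT mice (SD, n = 4 each). Their 95% intervals ran from -0.56 to 0.28, -0.31 to 0.52 and -0.31 to 0.47 on the log2 scale, and the directions of all 3 turned in batch b alone. The summed level of the family was 1295, 1167, 1122 and 1039.6 CPM in controls 1 to 4 and 1232, 1076, 1111 and 1030.1 in DT mice 1 to 4, with the groups overlapping.

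Mitochondrial carriers of the Slc25 family likewise lay on both sides of 0 (34 members, 27 tested, 13 below 0, median 0.020), with medians of -0.038 in batch a and -0.055 in batch b, so the class had no settled direction. *Slc25a5*, the ADP/ATP exchanger ANT2, measured 925 and 285 CPM in the batch a controls and 2469 and 2089 in the batch b controls. Under DT it stood at 743 and 1093 in batch a and 2549 and 1679.6 in batch b. The batches were further apart than the groups, and its direction turned without control 2 and in batch b alone (log2 fold change 0.24, SE 0.36, edgeR adjusted p = 0.743). *Slc25a3*, the phosphate carrier, averaged 735 ± 203 CPM in control and 878 ± 102 in DT mice (SD, n = 4 each) and *Slc25a15*, the ornithine carrier, 318 ± 97.1 CPM in control and 231 ± 52.3 in DT mice (SD, n = 4 each), with edgeR adjusted p of 0.614 and 0.301. *Slc25a37*, mitoferrin 1, which imports iron for heme and is best known from red cell precursors, lies at chr14:69241848-69285112, minus strand and measured 133 and 168 CPM in the batch a controls and 44.2 and 53.6 in the batch b controls. The DT mice had 84.4 and 71.8 in batch a and 31.5 and 31.5 in batch b. Its groups did not overlap within batches (log2 fold change -0.79, SE 0.17, edgeR adjusted p = 0.0895). The summed level of hemoglobin genes and *Alas2* ran from 332 to 1441 CPM in control and 292 to 1171 in DT mice. Of their 4 tested genes 3 lay below 0 (median log2 fold change -0.13) and 0 passed 0.2. In the sorted cells, which were not classed by red cell markers, *Slc25a37* UMIs were seen in 7.89% of epithelial cells and 1 of 168 immune cells. The part of red cell precursors in its bulk level was not tested.

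**Figure D3:**
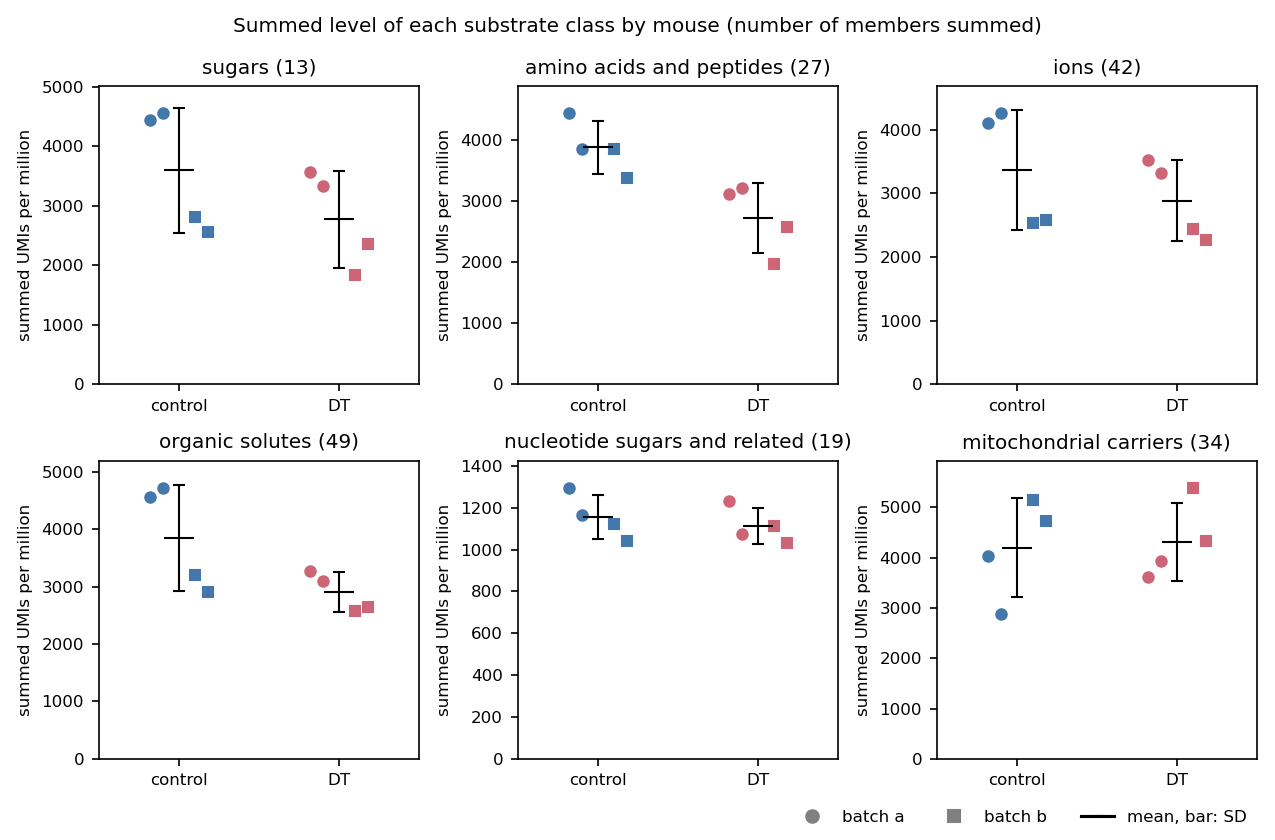
Summed level of each class in CPM (y axis, from 0) in each control and DT mouse (x axis), with the number of members summed in brackets; circles are batch a, squares batch b, and the black mark and bar are the mean and SD of 4 mice. For the amino acid and peptide carriers the 4 DT mice lie below the 4 controls, and for mitochondrial and Slc35 carriers the groups overlap.

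A pair of symbols are not carriers or not clearly countable. *Slc9a3r1* encodes NHERF1, a scaffold that holds carriers at the brush border, and averaged 1096 ± 160.3 CPM in control and 727 ± 151 in DT mice (SD, n = 4 each), with DT mice below the controls of their batch (log2 fold change -0.61, SE 0.22, edgeR adjusted p = 0.232). *Slc7a6os* lies opposite *Slc7a6*, so reads of both cannot be told apart unless strand was used in counting, and averaged 22.4 ± 14 CPM in control and 21.3 ± 8.29 in DT mice (SD, n = 4 each). Of the genes that work beside the carriers, 1 passed the test. For the sodium pump 0 of 4 tested genes passed 0.05, for chaperones and scaffolds 0 of 6, for other membrane transporters 0 of 23 and for enterocyte transcription factors 0 of 22, with median log2 fold changes of -0.060, -0.49, -0.19 and -0.16. At 0.2, 2 water channels, *Aqp1* (log2 fold change -1.08) and *Aqp3* (-0.93), and the transcription factor *Klf4* (-0.75) were lower, named here after their values were seen. In the list for iron, calcium and zinc handling 5 of 6 lay above 0, the median was 0.83 and 1 of 6 passed 0.05, with *Mt1* also higher at 0.2 (log2 fold change 1.58, edgeR adjusted p = 0.0506, named after its values were seen). The gene past 0.05, *Mt2*, like *Mt1* a metallothionein that binds zinc, measured 30.5 and 11.9 CPM in the batch a controls and 117 and 75.2 in the batch b controls. In DT mice it was 52.3 and 122 in batch a and 453 and 270.5 in batch b. It rose in DT (log2 fold change 1.93, SE 0.32, edgeR adjusted p = 0.0340).

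Whether these carriers differ along the villus was asked in the plate-sorted cells, a readout that the choice of carriers did not use. Of 12346 wells, 2347 held 400 to 8000 UMIs and at least 250 genes, and 1672 of them, from 8 mice, carried mostly epithelial markers. All 384 well barcodes were used on several plates, as in any plate design, and no cell name occurred more than once. By landmark genes, none of them a carrier, 748 cells fell in a lower villus range, 571 in an upper villus range and 139 in a crypt range, and UMIs were summed per mouse and range in the 7 mice with at least 10 cells in both villus ranges. These ranges are cuts of a gradient, and 138 of the 748 and 80 of the 571 cells lay near a cut. The cells were sorted for the stroma study with several gates, so 543 of the 1672 epithelial cells came from gates that took pairs of cells.

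Of the 36 members deep enough to test, 13 were higher in the upper villus range and 0 were lower (edgeR adjusted p under 0.05, mouse as a block), beside 24.3% of the 1173 genes tested that were higher and 22.1% that were lower. At an unadjusted p of 0.05, 2 members were lower. DESeq2 also called 13 higher and 0 lower, and without the pair gates the counts were 11 and 0 over 6 mice. No run in the sorted cells scaled by total UMIs alone, so the dependence of these counts on that scaling was not tested. Pooled over mice per 100000 of all UMIs, *Slc39a4* stood at 18.8 in both ranges, while *Slc27a4* stood at 32.0 in the lower and 61.1 in the upper. The 13 were carriers of folate (*Slc46a1*), creatine (*Slc6a8*), neutral amino acids (*Slc6a19*), phosphate (*Slc34a2*), amino acids (*Slc7a15*), fatty acids (*Slc27a4*), peptides (*Slc15a1*), dicarboxylates (*Slc13a2*), anions (*Slc26a6*), copper (*Slc31a1*) and zinc (*Slc39a4*), the heavy chain *Slc3a1* and the scaffold *Slc9a3r1*.

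*Slc46a1* measured 6.15, 9.64, 4.40, 17.7, 10.3, 6.79 and 18.7 UMIs per 100000 in the lower range of mice A, B, C, E, F, G and H, and 30.1, 39, 5.52, 28.7, 24.4, 50.6 and 73.4 in their upper range. It was higher in the upper range of all 7 mice (log2 fold change 1.91, SE 0.27, edgeR adjusted p = 6.01e-06). *Slc6a8* measured 24.8, 28.9, 32.2, 34.3, 38.6, 22.7 and 37.4 in the lower and 99, 94.7, 71.7, 95.5, 71.2, 123 and 99.4 in the upper range. Its ranges did not overlap between mice (log2 fold change 1.63, SE 0.21, edgeR adjusted p = 1.77e-06). *Slc6a19* went from 27.7 ± 10.8 to 76.7 ± 29.5 (SD, n = 7) and was higher in the upper range of 7 of 7 mice (log2 fold change 1.59, SE 0.25, edgeR adjusted p = 1.61e-05). *Slc34a2* went from 20.3 ± 17.1 to 56.4 ± 45.4 (SD, n = 7), with mouse B the other way (log2 fold change 1.56, SE 0.30, edgeR adjusted p = 1.45e-04). *Slc7a15* went from 8.89 ± 7.44 to 23.2 ± 7.65 (SD, n = 7), higher in 7 of 7 mice (log2 fold change 1.48, SE 0.32, edgeR adjusted p = 6.08e-04).

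*Slc27a4* and *Slc15a1* were higher in the upper range of 7 of 7 mice as well. *Slc27a4* went from 41.3 ± 14.7 to 105 ± 28.9 UMIs per 100000 (log2 fold change 1.39, SE 0.19, edgeR adjusted p = 2.67e-06). *Slc15a1* went from 22.4 ± 12.7 to 51.5 ± 17.0 (log2 fold change 1.17, SE 0.26, edgeR adjusted p = 8.95e-04; SD, n = 7). The 2 tested sugar carriers of high level did not pass: *Slc5a1* stood at 243 ± 75.4 and 276 ± 78.3 (log2 95% interval -0.14 to 0.50) and *Slc2a2* at 41.4 ± 18.4 and 41.2 ± 25.6 (-0.79 to 0.35). *Slc39a4* and *Slc31a1* were called with the least margin and lost the call without some mice, at log2 fold changes of 0.56 and 0.74. In pooled crypt range cells, 139 cells of which 80 came from mouse A, given with no test, *Slc15a1* stood at 4.59 UMIs per 100000 of all UMIs beside 19.4 in the lower and 27.9 in the upper villus range, and *Slc25a5* at 137, 202 and 134. The pooled levels weigh mice by their UMIs and are scaled otherwise than the tested levels, from which they differ. In the tested levels *Slc25a5* stood at 220 ± 46.9 in the lower and 216 ± 47.6 in the upper range (SD, n = 7).

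**Figure D4:**
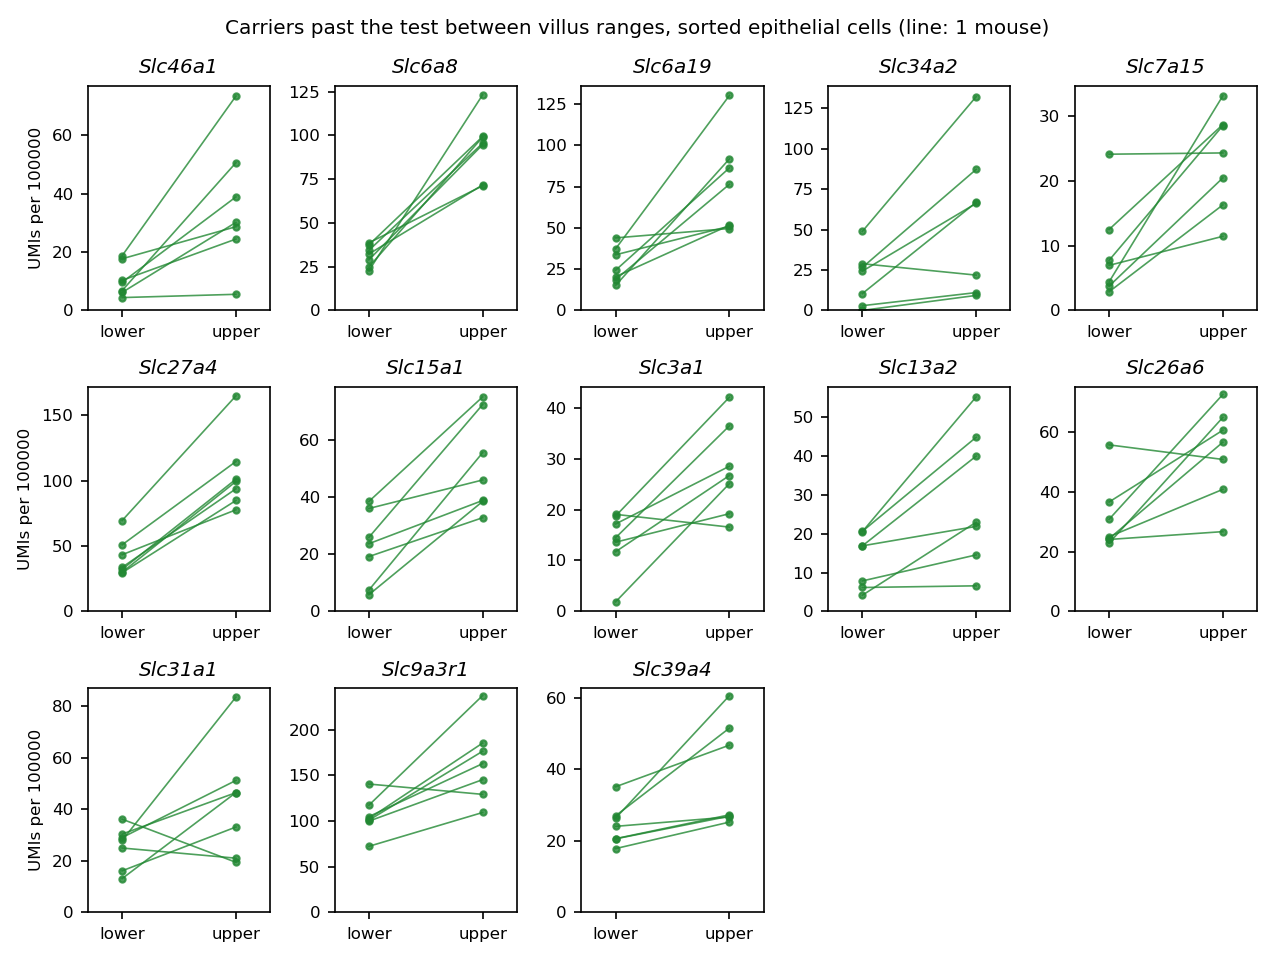
Level of the 13 carriers called between villus ranges, in UMIs per 100000 of the genes tested (y axis, from 0), in the lower and upper villus range (x axis) of sorted epithelial cells; each line joins the ranges of 1 of 7 mice. All 7 lines climb for *Slc46a1*, *Slc6a8*, *Slc6a19*, *Slc7a15*, *Slc27a4*, *Slc15a1*, *Slc13a2* and *Slc39a4*, and 5 of 7 do for *Slc31a1*.

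The share of cells with a UMI of a carrier was set beside that of the immune cells. Of the 168 immune cells 166 came from mice B and C, while mice A, F and G gave most of the epithelial cells, so free RNA on the plates of the other mice was not measured by them. A UMI of *Slc5a1* was found in 69.4% of epithelial cells (median 1700.0 UMIs) and 0 of 168 immune cells (median 709 UMIs), which allows a share of up to 1.79%. For *Slc27a4* the shares were 40.7% and 0.595%, and for *Slc6a8* 38.1% and 0.595%. The scaffold *Slc9a3r1* was seen in 62.8% of epithelial and 16.7% of immune cells. *Slc38a1*, the carrier with a higher level in DT epithelium, was seen in 1.73% of epithelial and 3.57% of the shallower immune cells. Along the axis it had 15 UMIs in 10 of 139 crypt cells, 16 in 11 of 748 lower villus cells and 3 in 2 of 571 upper villus cells, or 2.87, 0.949 and 0.255 per 100000 UMIs. The pooled level was highest in the crypt range, on few UMIs and with no test, and the crypt cells were deeper (median 3650.0 UMIs).

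Most carriers higher in the upper villus had log2 fold changes below 0 after DT, as had most other genes of the upper villus. Of the 13, 11 had a log2 fold change below 0 in DT against control, the exceptions being *Slc46a1* and *Slc31a1*, and the median of the 13 was -0.68. Of all 265 upper villus genes tested in both data sets 84.2% lay below 0, with a median of -0.29, and the share of the carriers, 84.6%, was close to that of upper villus genes in general. Of 207 genes lower in the upper villus 11.6% lay below 0, and none of them was a carrier. The 11 include *Slc34a2*, for which a lower value is built in by the filter and whose level was far lower in the bulk epithelium than in the sorted cells. Among the 23 carriers not called between ranges 16 lay below 0 (69.6%, all such genes 49.7%). Over the 36 carriers the 2 log2 fold changes had a Pearson r of -0.51 and a Spearman rho of -0.45, and over all 1055 genes -0.58 and -0.63. These are descriptions across genes, which are not independent and share libraries within each data set, and the mice of the 2 data sets were different ones.

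**Figure D5:**
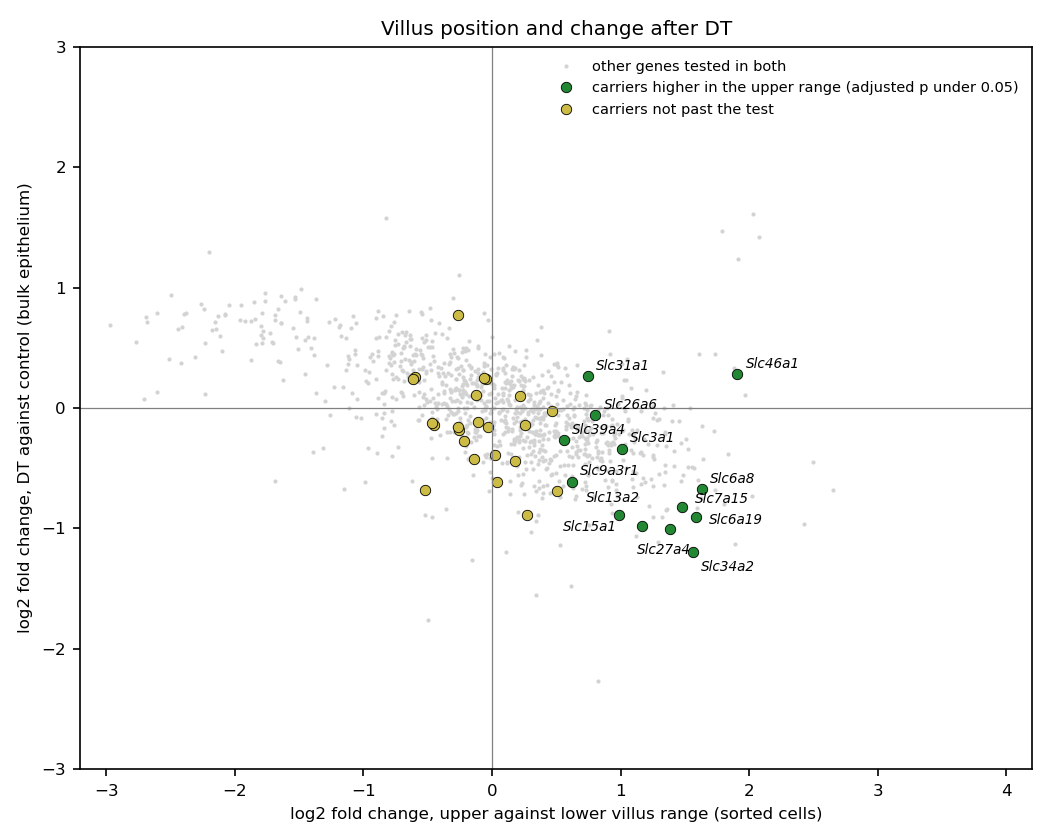
Log2 fold change between villus ranges in sorted cells (x axis) against log2 fold change between DT and control in bulk epithelium (y axis). Points are genes: green, the 13 carriers called between ranges; yellow, the other 23 carriers tested in both; grey, 1019 other genes, of which 3 lie beyond the axes. Of the 13 green points, 11 lie below 0 on the y axis.

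The rest of the members were low. Of the 188, 25 did not pass the filter of more than 10 CPM in at least 2 mice, and had 81 to 172 UMIs over the 8 libraries. They were 3 sugar, 5 amino acid, 1 nucleoside, 2 ion, 7 organic solute and 7 mitochondrial carriers, among them the glucose carrier *Slc2a1* and the amino acid carrier light chain *Slc7a5*. Of the 163 that passed, 6 did so through mice of 1 group, so that a difference is built into their selection. Nearest the sum of 80 UMIs, *Slc25a35*, *Slc14a1* and *Slc16a9* were just inside with 81, 84 and 85 UMIs and *Slc35e3*, *Slc39a6* and *Slc31a2* just outside with 78, 75 and 71. Of the 85 UMIs of *Slc16a9*, 74 came from DT 3 alone.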

How the data were processed

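The authors prepared the bulk epithelium libraries by mcSCRB-seq, which tags the 3' end of each mRNA with a UMI, and counted UMIs per gene with zUMIs on GRCm38.84, and the deposited counts were used unchanged. Because a UMI stands for 1 molecule whatever its length, levels were not divided by gene length. Sorted cells were made by the authors with MARS-seq, and their deposited table also holds UMI counts per gene and well; the submitters' processing notes name bcl2fastq 2.15.0.4. The 352 wells of a plate that matched no sample, the laser capture TPM table and the barcode lists were not used.

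Carriers and gene lists were chosen with earlier results of these data known. Genes over 1e-05 of the UMIs (10 CPM) in at least 2 samples were tested with edgeR 4.0.16 (TMM, robust quasi-likelihood, batch as a term, Benjamini-Hochberg over all genes) in R 4.3.3, with DESeq2 1.42.0 as an alternative. The test was tried on simulated counts first. Batches come from the study's tables and not from the sample labels. Deviations from the group means correlated between same-numbered mice (0.41 to 0.65), but within batches their correlation was -0.14 in batch a and -0.065 in batch b, so the numbers followed the batch, and the replicate block was run as an alternative. Wells were kept at 400 to 8000 UMIs and 250 or more genes, and their cells called epithelial, immune or mesenchymal by summed markers and split into crypt, lower and upper villus ranges by landmark genes (at least 3 landmark UMIs). Range sums per mouse were tested in edgeR with the mouse as a block, after filterByExpr, and levels are UMIs per 100000 of the genes tested, scaled by TMM. No doublet caller was run, and the alternative without the pair gates was chosen after seeing the data, as were those without control 2. Limits from a count of 0 cover counting error only.

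The genes named were those past an adjusted p of 0.2, the 3 of highest mean in each class, the carriers next to the sum of 80 UMIs, partner genes past 0.05 and the 5 of largest change between villus ranges, unless said otherwise. Coordinates are from GENCODE vM21 and promoter windows from RefSeq (GRCm38.p6).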

Additional observations from a re-analysis of the deposited data

Results flagged for a closer look

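*Slc28a3* stood at 31.2 CPM in control 2, the shallowest library, and at 16.0 to 17.7 in the other 3 controls, so 1 mouse lay far from its group. *Slc35c2* stood at 229 in DT 1 and at 163 to 172 in the other 3 DT mice. These were 2 of 60 groups of 4 mice checked by the gap of an extreme sample, and chance alone gives about 1 in 20 groups. The part of depth in either value was not tested.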

How the results depend on the processing

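In the DT comparison 32 genes and 0 carriers passed an adjusted p of 0.05 and 214 genes and 11 carriers passed 0.2. The counts were 1 gene and 0 carriers at 0.05 and 3 and 0 at 0.2 with no batch term and 3 genes and 0 carriers at 0.05 and 70 and 2 at 0.2 with the replicate block. Scaling gave 37 genes and 1 carrier at 0.05 and 233 and 11 at 0.2 with RLE size factors and 22 genes and 0 carriers at 0.05 and 144 and 7 at 0.2 with total UMIs alone. There were 635 genes and 20 carriers at 0.05 and 1518 and 32 at 0.2 with no filter on low counts and 159 genes and 11 carriers at 0.05 and 846 and 22 at 0.2 in DESeq2. The batches gave 0 genes and 0 carriers at 0.05 and 0 and 0 at 0.2 in batch a alone and 5 genes and 0 carriers at 0.05 and 37 and 0 at 0.2 in batch b alone. Leaving out each mouse in turn gave 3 to 41 genes at 0.05, 41 to 840 genes at 0.2 and 2 to 23 carriers at 0.2, with 0 carriers at 0.05 each time. The class medians of log2 fold change below 0 stayed below 0 in every alternative run, and those of the Slc35 and mitochondrial carriers, close to 0, turned in some. Ions had -0.11 with total UMIs alone and -0.11 in batch b alone, and amino acid and peptide carriers -0.44 in batch b alone. Without 1 mouse the medians ran from -0.17 to -0.12 for ions, -0.17 to -0.0034 for organic solutes, -0.021 to 0.11 for Slc35 carriers and -0.058 to 0.081 for mitochondrial carriers. Single carriers of small difference changed direction: with total UMIs alone *Slc26a6* (0.0044), in batch a alone *Slc7a6os* (-0.20) and *Slc46a1* (-0.21), and in batch b alone *Slc26a6* (0.12), *Slc35c2* (0.16), *Slc35b1* (-0.14), *Slc35g1* (-0.076) and *Slc25a5* (-0.12). Without 1 mouse the ranges were -0.18 to 0.089 for *Slc26a6*, -0.39 to 0.022 for *Slc13a1*, -0.22 to 0.019 for *Slc35c2*, -0.050 to 0.19 for *Slc35b1*, -0.016 to 0.22 for *Slc35g1*, -0.071 to 0.53 for *Slc25a5* and -0.057 to 0.29 for *Slc7a6os*. The cause of these changes was not tested. Of 44 single values, 36 kept their direction in every alternative run. In the sorted cells 285 genes were higher and 259 lower in the upper villus, 183 higher with no replicate block and 667 lower with no filter. Without 1 mouse the counts were 184 to 402 higher and 174 to 407 lower, and 0 to 1 carrier lower, the 1 without mouse H. Carriers higher in the upper villus numbered 13, and 10 to 15 without 1 mouse.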
